A study of Arabidopsis thaliana with 28 samples.

Results

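The data described here are the transcriptional response of wild-type *Arabidopsis thaliana* seedlings to 1 h of flg22, measured by RNA sequencing. They come from 6 of the 28 samples of a series on the zinc finger transcription factor IDD4, namely 3 samples of untreated WT (labelled ColO) and 3 of WT given 1 µM flg22 for 1 h. Both groups were whole 14-day-old seedlings of the same accession, grown on sugar-free MS plates in long days at 23 °C, with no transgene or mutation. The 3 samples in each group were deposited as 1 pooled FPKM value per gene (fragments, corrected for transcript length and for the total of mapped fragments). No spread between seedlings, plates or libraries can therefore be given, no test was possible, and the number of reads behind a value is unknown. The same experiment holds 6 samples labelled idd4, an IDD4 mutant given as Salk_148352C, 3 untreated and 3 treated alike, which are used only at the end for a side by side reading. The comparison asks which genes had a different transcript level after 1 h of this bacterial peptide. The sample labels call the control untreated, whereas captions of the study call it mock for the idd4 seedlings of the same experiment. Which of these describes the WT control is not settled here: a mock control would share the handling of the plants, and with an untreated one the handling and flg22 cannot be told apart. In whole seedlings, fewer cells of a type and less RNA per cell cannot be told apart either. The gene identifiers of the deposited table stand in another order than the values, and all results below use the identifiers in alphabetical order, as checked in the methods.

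flg22 is a stretch of bacterial flagellin that plants recognise as a sign of infection. It is bound at the cell surface by the receptor kinase FLS2, which recruits the co-receptor BAK1 and acts through cytoplasmic kinases such as BIK1. Calcium influx, a burst of reactive oxygen from the NADPH oxidase RBOHD and a cascade of mitogen-activated protein kinases (MAPKs) follow within minutes, and calcium sensors, MAPKs and WRKY transcription factors then reprogramme transcription. The state reached is known as pattern-triggered immunity and is accompanied by slower growth.

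Of 27371 genes in the table, 18540 had at least 1 FPKM in either group and were compared on the scale of log2(FPKM + 1), which understates the change of weakly expressed genes. A gene is counted below as higher or lower when its FPKM + 1 differed at least 2-fold. By this measure 2028 genes (10.9%) were higher and 1573 genes (8.48%) were lower after flg22, and these shares are the background for every count that follows. The higher set reached much larger changes: 445 genes were at least 8-fold higher and 63 at least 8-fold lower, and at 32-fold the numbers were 86 and 24. The higher genes had a median of 5.89 FPKM in untreated seedlings and 31.6 FPKM after flg22, and 77 of them went from under 1 to at least 10 FPKM. The lower genes started above the typical gene, with a median of 14.5 FPKM untreated against 7.21 for all genes compared, and had a median of 4.37 FPKM after flg22. The measure favours this, since a gene under 1 FPKM untreated cannot be counted as lower. At the top of the range, 449 genes reached 100 FPKM only after flg22, and 96 of these had been under 10 FPKM.

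**Figure D1:**
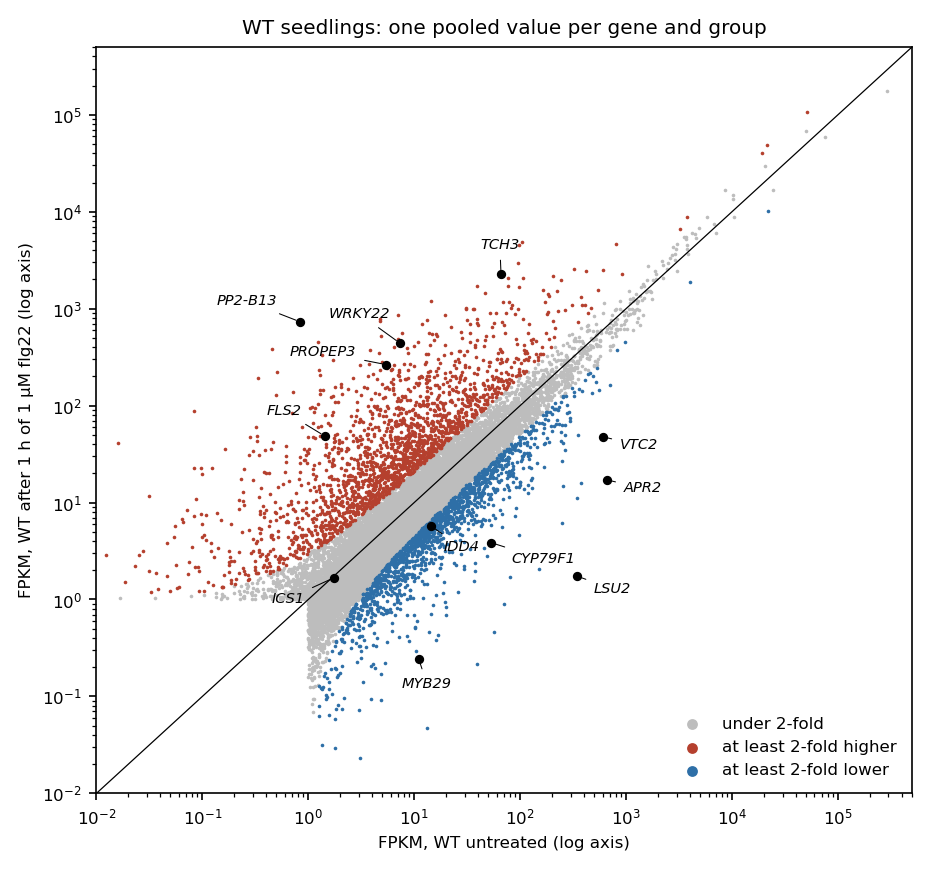
FPKM of each compared gene in untreated WT (x axis) and in WT after 1 h of flg22 (y axis), both on log scales, with 1 point per gene and 1 pooled value per group of 3 samples; genes listed at 0 in a group are not drawn. Genes at least 2-fold higher reach further from the diagonal than genes at least 2-fold lower.

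The median change of all genes was -0.16 on the log2 scale, slightly below 0. This centre, and with it the balance of higher and lower genes, depends on the scaling. The median was -0.07 when the groups were scaled by the median of ratios, -0.01 when the nuclear genes of each group were set to the same sum, and -0.36 when the 10 highest genes of each group were left out of that sum. The study's own gene table holds the treated WT values on a scale lower by a near-constant 0.15 (log2), as large as the median itself, and on that scale the median was -0.29. Which of these scales is meant is not known. Higher genes made up 56.3% of the called genes as deposited, 67.0% with equal nuclear sums (2307 higher and 1138 lower), 46.5% on the scale of the study's table (1790 higher and 2058 lower) and 41.1% without the 10 highest genes (1683 higher and 2411 lower). The 10 highest genes held 44.6% of the summed FPKM in untreated seedlings and 41.6% after flg22. Small changes on the log2 scale are therefore read against -0.16.

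The largest increase was that of *PP2-B13* (AT1G56240), a gene of the phloem protein 2 family at chr1:21056099-21057577, from 0.834 to 733 FPKM. Its neighbour *PP2-B14* (AT1G56250) went from 0.450 to 381 FPKM and *PP2-A5* from 1.33 to 333 FPKM. *PP2-B13* and *PP2-B14* are close relatives, and reads may have been split between them. Across the family, which was listed after these values were seen, only 5 of 20 compared genes were higher and 1 was lower, and the median of 0.23 changed sign with the scaling, so that the large values belong to a few members. A UDP-glycosyltransferase gene, AT1G05675, went from 1.24 to 452 FPKM. The AP2/ERF gene *TDR1* went from 0.335 to 192 FPKM. A class III peroxidase gene, AT5G39580, stood at 4.77 FPKM untreated and at 750.2 FPKM after flg22. All of these were under 5 FPKM in untreated seedlings and above 100 FPKM after flg22. *BCB*, which encodes a blue copper-binding protein, was already at 14.5 FPKM and reached 1192 FPKM. AT1G26380, a berberine bridge enzyme-like oxidase gene, went from 3.82 to 379 FPKM, and 10 of the 19 compared genes of that family, also listed after values were seen, were higher.

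Of the 20 largest decreases, 8 were of genes on a sulfur list that was made after these values were seen. *LSU2* (AT5G24660), one of the response to low sulfur genes, went from 346 to 1.74 FPKM, which is 199-fold lower. *LSU3* went from 151 to 2.05 FPKM and *LSU1* from 80.5 to 1.69 FPKM. *APR2*, encoding a reductase of sulfate assimilation, went from 661 to 17.1 FPKM. Other genes with large decreases were AT2G27420, from 57.1 to 0.460 FPKM, and *VTC2*, encoding an enzyme at the committed step of ascorbate synthesis, from 608 to 47.6 FPKM. *CIB1*, encoding a bHLH factor that binds cryptochrome 2, went from 16.7 to 0.428 FPKM. These were well expressed transcripts in untreated seedlings, most of them at a low level after 1 h. A large decrease of log2(FPKM + 1) needs a high starting level, so this follows from the ranking.

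Cell surface receptors formed one of the clearest groups. Of 23 pattern receptors, co-receptors and their partners, 17 were higher and 1 was lower, with a median change of 2.35. *LYK4*, encoding a chitin receptor kinase, went from 4.74 to 92.1 FPKM and *CERK1*, its signalling partner, from 5.06 to 42.1 FPKM. *SOBIR1*, the adaptor kinase of receptor-like proteins, went from 22.5 to 351 FPKM. Receptors of chitin, of bacterial proteins and of danger peptides were thus higher along with *FLS2* (1.42 to 48.7 FPKM). *BAK1* went from 8.69 to 48.6 FPKM and its paralog *SERK4* from 6.04 to 70.4 FPKM. The other paralogs behaved differently, as *SERK2* went from 7.41 to 2.86 FPKM and *SERK1* from 2.63 to 1.89 FPKM. Negative regulators were included in the increase: *BIR1*, encoding a BAK1-interacting kinase that restrains cell death, went from 13.9 to 202 FPKM. *DORN1*, the receptor of extracellular ATP, went from 4.70 to 5.84 FPKM and *PEPR2*, a receptor of Pep peptides, from 1.26 to 1.11 FPKM, both under 2-fold.

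Downstream of the receptors, 3 of 5 cytoplasmic kinases on the list were higher. *BIK1* went from 7.86 to 74.6 FPKM, and *CPK28*, encoding the calcium-dependent kinase that promotes BIK1 turnover, from 7.06 to 119 FPKM. *BSK1*, in contrast, was at 17.4 and 19.4 FPKM. Transcripts of both the kinase and the enzyme that limits it were thus higher in RNA of whole seedlings.

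The large families of receptor kinases and resistance proteins were mostly higher. Of 32 compared cysteine-rich receptor-like kinase genes, 18 were higher and 1 was lower (median 1.19), led by *CRK11*, from 4.30 to 136 FPKM. Of 56 genes matched by annotation as lectin receptor kinases, 32 were higher and 2 lower (median 1.29). Wall-associated kinases, which bind pectin, had 9 of 14 genes higher and none lower, with *WAKL2* going from 1.03 to 93.8 FPKM. Intracellular TIR-NBS-LRR resistance genes, which recognise effectors and not flg22, had 39 of 68 genes higher and 0 lower, with a median of 1.12. AT5G41740 of this family went from 3.27 to 67.3 FPKM. Receptor-like proteins without a kinase domain were more mixed, with 14 of 42 higher, 1 lower and a median of 0.23. The counts cover members with at least 1 FPKM in either group, so that members silent in both groups do not enter them, and closely related members may share reads.

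**Figure D2:**
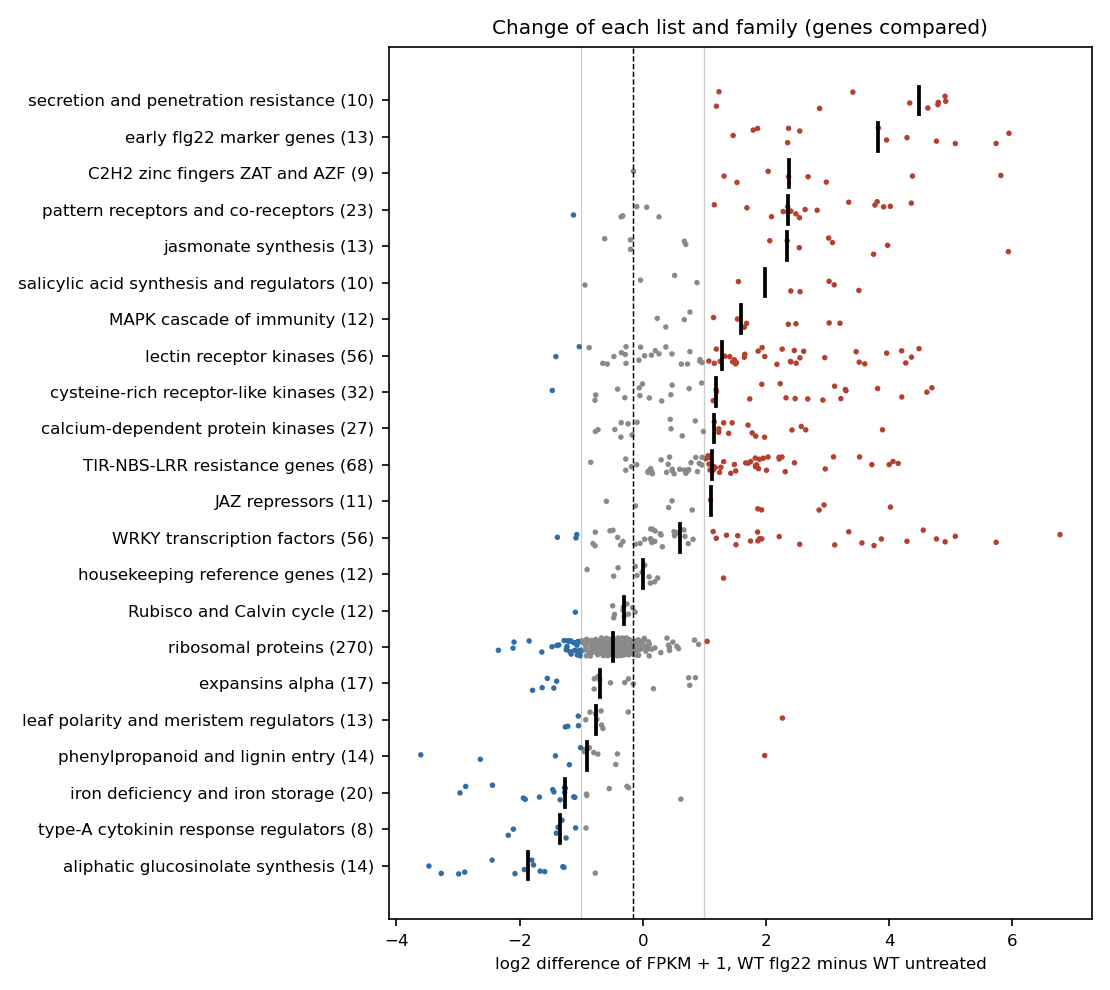
Log2 change of FPKM + 1 after flg22 in WT (x axis) for the members of selected gene lists and families (y axis), with 1 point per gene above 0 in both groups and a mark at the median of each list. Receptors, calcium-dependent kinases and secretion genes lie mostly to the right of the median of all genes, and the aliphatic glucosinolate genes lie to its left.

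Signalling components below the receptors were also higher, with differences within each class. In the MAPK cascade, 8 of 12 compared genes were higher and none lower (median 1.59). *MPK3* went from 21.7 to 184 FPKM and *MPK11* from 0.242 to 10.4 FPKM. *MPK6*, a close partner of *MPK3*, went only from 16.9 to 29.5 FPKM and *MPK4* from 12.6 to 16.6 FPKM. Of the kinases that activate them, *MKK4* went from 12.8 to 69.8 FPKM and *MAPKKK5* from 6.28 to 39.8 FPKM. Of 6 MAPK phosphatases and substrates 3 were higher. These were the substrate *MKS1*, from 8.63 to 115 FPKM, and the phosphatases *PP2C5*, from 0.354 to 8.23 FPKM, and *MKP1*, from 17.1 to 37.9 FPKM. The phosphatase genes *AP2C1*, *PTP1* and *MKP2* were under 2-fold, so inactivating enzymes were included only in part. In the whole families, 4 of 18 MAP kinases and 4 of 6 MAP kinase kinases were higher, with 1 and 0 lower.

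Among the calcium sensors, 8 of 12 calmodulin-like genes and 14 of 27 calcium-dependent protein kinase genes were higher, and 1 and 0 were lower. *CML42* went from 14.8 to 543 FPKM and *CPK32* from 22.9 to 148 FPKM. Calcium channels were divided. *CNGC13* went from 0.835 to 29.5 FPKM, but *CNGC4*, encoding a channel subunit of immune calcium influx, went from 12.1 to 3.55 FPKM. Of 16 cyclic nucleotide-gated channel genes 4 were higher and 2 lower, and the same counts held for 16 glutamate receptor-like genes, whose median of 0.14 changed sign with the scaling. Both genes annotated as CBP60 calmodulin-binding factors were higher. *RBOHD* went from 15.5 to 90.9 FPKM, whereas *RBOHF* was at 3.94 and 3.64 FPKM. *RBOHD* was the only one of 5 compared RBOH genes past 2-fold, and the family median of -0.09 changed sign with the scaling. On the list of NADPH oxidases and calcium pumps and channels, 4 of 7 genes were higher and 1 was lower.

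Transcription factor families differed in direction. All 13 genes of a list of early flg22 markers were higher, a list that holds genes known for this response. Among 56 compared WRKY genes, 24 were higher and 3 lower. *WRKY30* (AT5G24110) went from 1.71 to 296 FPKM and *WRKY22* from 7.31 to 442 FPKM. *WRKY33*, which controls camalexin synthesis, went from 7.16 to 221 FPKM. *WRKY40*, a repressor of immune genes, went from 1.43 to 80.8 FPKM, so that activators and repressors were both higher. The VQ proteins, small partners of WRKY factors listed after their values were seen, had 14 of 25 genes higher and none lower, with AT2G22880 going from 4.74 to 787 FPKM. The ZAT and AZF zinc fingers had 8 of 9 genes higher, led by *ZAT11*, from 2.02 to 169 FPKM.

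Of 88 ERF and DREB genes, 33 were higher and 10 lower, and *ERF6*, a substrate of MPK3 and MPK6, went from 3.65 to 202 FPKM. NAC genes had 11 of 61 higher and 7 lower, with a median of -0.01 whose sign changed with the scaling. *ATAF2* went from 28.1 to 222 FPKM. Heat shock factors were split, 4 of 18 higher and 3 lower, with *HSF A4A* going from 5.95 to 55.2 FPKM and *HSFA2* from 10.11 to 1.65 FPKM. The remaining families leaned the other way. MYB genes had 6 of 80 higher and 18 lower, bHLH genes 5 of 88 higher and 21 lower, homeobox genes 3 of 67 higher and 10 lower, and GATA genes 1 of 32 higher and 7 lower. *CGA1*, a cytokinin-responsive GATA factor of greening, went from 33.3 to 3.31 FPKM.

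Because WRKY factors bind the W-box, the promoter windows of a few genes are printed here with their W-box cores. The windows are the 250 bases before the annotated start of the gene, from RefSeq on TAIR10.1, written 5′ to 3′ on the strand of the gene. Capitals mark TTGACC or TTGACT on either strand (written GGTCAA or AGTCAA where the match is on the other strand) and CGCGT, a core bound by the calmodulin-binding CAMTA factors, on either strand. The first 4 are examples among genes with large increases, not the 4 largest, and the last belongs to the gene with the largest decrease. They lie at chr1:21057578-21057827 on the minus strand, chr5:8154711-8154960 on the minus strand, chr2:16107985-16108234 on the plus strand, chr5:23187590-23187839 on the plus strand and chr5:8444102-8444351 on the minus strand.
PP2-B13: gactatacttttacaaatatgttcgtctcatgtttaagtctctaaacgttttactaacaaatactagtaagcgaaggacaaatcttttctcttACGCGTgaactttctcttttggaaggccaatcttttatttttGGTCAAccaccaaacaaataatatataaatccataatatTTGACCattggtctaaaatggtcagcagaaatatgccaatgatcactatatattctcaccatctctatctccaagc
WRKY30: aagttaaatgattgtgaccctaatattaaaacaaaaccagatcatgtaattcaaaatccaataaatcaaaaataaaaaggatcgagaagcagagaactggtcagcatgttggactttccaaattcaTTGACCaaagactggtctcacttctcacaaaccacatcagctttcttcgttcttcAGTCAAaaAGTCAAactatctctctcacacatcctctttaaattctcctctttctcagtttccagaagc
WRKY33: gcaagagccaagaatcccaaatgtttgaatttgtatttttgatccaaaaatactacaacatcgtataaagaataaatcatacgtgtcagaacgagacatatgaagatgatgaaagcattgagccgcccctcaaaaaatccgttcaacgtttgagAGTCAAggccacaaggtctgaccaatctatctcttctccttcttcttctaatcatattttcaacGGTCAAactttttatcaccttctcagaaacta
CYP81F2: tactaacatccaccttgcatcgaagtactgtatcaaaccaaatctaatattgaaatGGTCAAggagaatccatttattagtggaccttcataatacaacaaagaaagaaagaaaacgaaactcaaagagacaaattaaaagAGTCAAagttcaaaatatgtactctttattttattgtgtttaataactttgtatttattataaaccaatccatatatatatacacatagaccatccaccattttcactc
LSU2: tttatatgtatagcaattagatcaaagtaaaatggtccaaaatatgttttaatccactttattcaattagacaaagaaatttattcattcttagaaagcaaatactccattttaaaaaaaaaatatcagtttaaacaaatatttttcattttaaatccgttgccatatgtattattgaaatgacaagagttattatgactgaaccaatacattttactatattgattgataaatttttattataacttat
The window of *WRKY30* holds 3 W-box cores, those of *PP2-B13*, *WRKY33* and *CYP81F2* hold 2 each, and that of *LSU2* holds 0. At least 2 cores were found in only 25.3% of the windows of genes at least 8-fold higher, so the printed windows are no typical set. In *PP2-B13* the letters ACGCGT read the same on both strands and are therefore 2 overlapping matches of CGCGT. A match is a run of letters and no measured binding site.

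Over all genes with a window, the share holding a W-box core followed the size of the increase. A core on either strand was found in 28.65% of 18380 windows of compared genes. It was found in 41.0% of the 1123 windows of genes 2-fold to 4-fold higher, in 46.1% of the 447 windows of genes 4-fold to 8-fold higher and in 57.3% of the 443 windows of genes at least 8-fold higher. Among the 219 genes at least 4-fold lower the share was 25.1%, close to the 26.8% of genes under 2-fold either way. Windows with at least 2 cores made up 25.3% of the group at least 8-fold higher and 6.29% of all windows. CGCGT was in 17.2% of the windows of genes at least 8-fold higher, in 2.74% of those at least 4-fold lower and in 7.42% of all.

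Other motifs were given in the same way, for genes at least 8-fold higher, genes at least 4-fold lower and all genes. AGACAA, a core bound by the ID1 family to which IDD4 belongs, was in 24.2% of the windows of genes at least 8-fold higher, 15.98% of those at least 4-fold lower and 19.2% of all. GCCGCC, bound by ERF factors, was rare, at 3.61%, 0.457% and 1.89%. TGGGCC, the site II element bound by TCP factors, was less frequent at both ends, at 6.32% and 6.85% against 16.4% of all windows. The palindrome CACGTG, the G-box, was at 8.13%, 10.96% and 7.36%. GATAAG was at 16.3%, 10.5% and 12.5%, and AATATCT at 9.26%, 10.96% and 10.03%. AACCCTA, the telo box, was at 3.61%, 5.48% and 5.17%. Within families, a W-box core was in 59.4% of the 32 windows of cysteine-rich receptor-like kinases, in 48.2% of the 56 of lectin receptor kinases and in 35.7% of the 56 of WRKY genes. It was in 42.6% of the 68 windows of TIR-NBS-LRR genes, and in 40% each of the 25 of VQ genes and the 10 of the secretion list. Below the 28.65% of all windows were the ribosomal protein genes, with 19.3% of 270, and the aliphatic glucosinolate genes, with 14.3% of 14. The windows were searched on both strands.

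**Figure D3:**
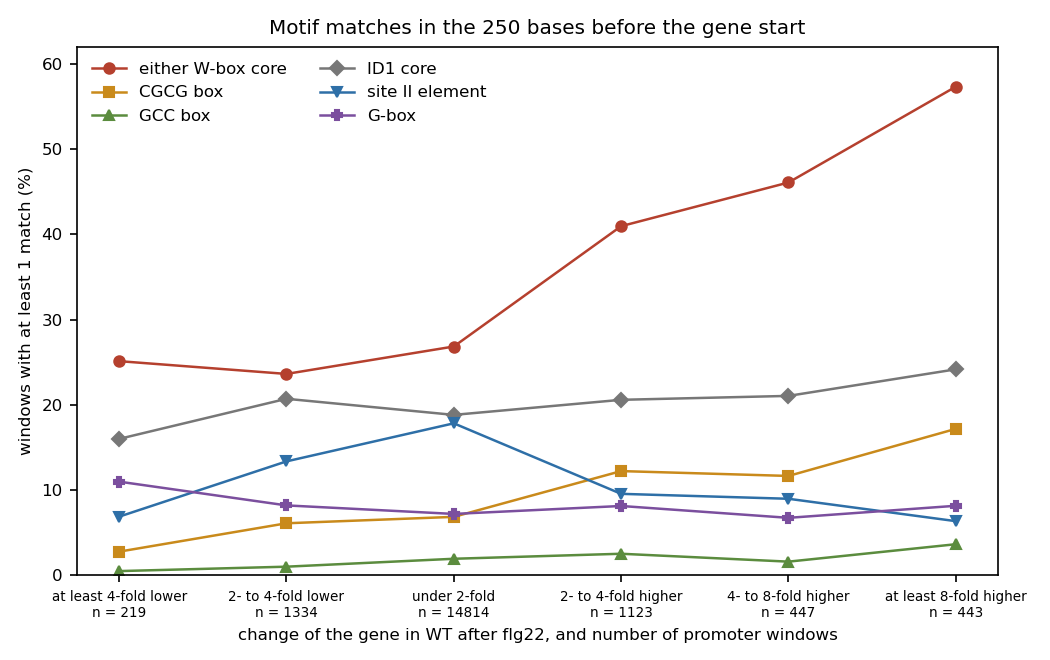
Percent of 250-base promoter windows that hold each motif on either strand (y axis), for genes grouped by the size and direction of their change after flg22 in WT (x axis). The W-box share climbs from 26.8% of genes under 2-fold to 57.3% of genes at least 8-fold higher.

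Genes of protein turnover and secretion were among the clearest increases. All 10 genes of a list on secretion and penetration resistance were higher, with a median of 4.48. The syntaxin gene *PEN1* (*SYP121*), needed to stop fungal entry, went from 27.9 to 581 FPKM, and its partner *SNAP33* from 19.7 to 219 FPKM. *SYP122* went from 16.3 to 516 FPKM. The ubiquitin ligase genes *PUB22*, *PUB23* and *PUB24*, which together dampen flg22 signalling, went from 6.08 to 174, from 14.1 to 419 and from 1.23 to 60.7 FPKM. *EXO70B2*, an exocyst subunit and a target of PUB22, went from 7.95 to 269 FPKM. The whole families contained many members under 2-fold besides, with 10 of 21 PUB, 6 of 13 ATL, 8 of 19 EXO70 and 4 of 19 syntaxin genes higher and 0, 0, 0 and 1 lower. Of the 3 plasmodesmal and callose genes, *PMR4* (*GSL5*), the stress callose synthase, went from 11.1 to 27.6 FPKM and *PDLP5* from 8.47 to 13.1 FPKM.

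For salicylic acid, the regulators were higher but the biosynthetic gene was not. *CBP60G*, encoding a factor that activates *ICS1*, went from 2.34 to 37.0 FPKM and *SARD1* from 0.199 to 2.51 FPKM. *ICS1*, which makes the precursor isochorismate, was at 1.74 and 1.67 FPKM. The lipase-like partners *SAG101* and *PAD4* differed, going from 7.88 to 71.2 and from 11.8 to 22.5 FPKM. In all 6 of 10 compared genes of synthesis and regulation were higher and 0 lower. Of 12 genes of perception and output 4 were higher and 0 lower. *NPR1*, a salicylic acid receptor, went from 9.94 to 53.5 FPKM, and the marker *PR2* from 0.840 to 3.31 FPKM, while *PR1* was at 7.74 and 12.1 FPKM and *PR5* at 12.2 and 6.95 FPKM.

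The jasmonate pathway also showed a gap between its parts, but here it was the synthesis genes that were higher. Of 13 synthesis genes 8 were higher and none lower (median 2.34). *LOX4*, encoding a lipoxygenase at the start of the pathway, went from 1.36 to 143 FPKM, whereas *LOX2*, the major leaf isoform, was at 48.0 and 41.6 FPKM. *AOC1* went from 38.1 to 315 FPKM and *OPR3* from 10.14 to 63.8 FPKM. The catabolic gene *CYP94C1* went from 0.977 to 25.5 FPKM. Of 11 compared JAZ repressor genes 6 were higher, among them *JAZ5*, from 0.769 to 12.6 FPKM. Signalling and output genes had 2 of 9 higher and 1 lower, with a median of 0.12 that changed sign with the scaling. *MYC2* went from 20.9 to 68.9 FPKM and its homolog *MYC4* from 26.3 to 8.22 FPKM. The outputs *VSP1*, at 15.8 and 16.2 FPKM, and *PDF1.2A*, at 9.41 and 11.5 FPKM, were under 2-fold.

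Ethylene genes had 5 of 14 higher and 0 lower. *ACS7*, encoding an enzyme that makes the ethylene precursor, went from 1.58 to 32.5 FPKM. *EIN2*, the central signalling protein, was at 22.8 and 16.5 FPKM. Among the precursors of Pep danger peptides, *PROPEP3* stood out, from 5.396 to 265 FPKM, while *PROPEP6* went from 5.18 to 1.46 FPKM, giving 1 of 7 higher and 2 lower. Of the 4 other immune and growth peptides *PSK4* went from 22.04 to 114 FPKM, and *RALF23*, which inhibits immune signalling, was at 142 and 119 FPKM. RALF genes as a family had 2 of 12 higher and 0 lower, with a median of -0.07 that changed sign with the scaling, and CLE genes had 5 of 23 higher and 6 lower. Abscisic acid genes had 2 of 11 higher and 3 lower, and of 5 cold regulators and targets none was past 2-fold.

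The branches of glucosinolate metabolism differed in direction. Indole glucosinolates and camalexin are made from tryptophan, and aliphatic glucosinolates from methionine. Of 18 compared genes of the indole and camalexin list, 10 were higher and 2 lower. *CYP81F2*, whose product modifies indole glucosinolates, went from 7.01 to 492 FPKM, and its partners *IGMT1* and *IGMT2*, near-identical methyltransferase genes whose reads may be split, went from 12.8 to 344 and from 4.89 to 527 FPKM. *PEN2*, the myrosinase that activates the products, went from 19.3 to 335 FPKM and *PEN3*, a transporter of penetration resistance, from 30.5 to 1019.5 FPKM. Camalexin-specific genes were not part of this: *CYP71A13* went from 19.7 to 0.936 FPKM and *PAD3* was at 3.19 and 3.68 FPKM. The regulators switched, with *MYB51* going from 5.48 to 99.6 FPKM and *MYB34* from 42.8 to 11.3 FPKM.

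In the aliphatic branch, 13 of 14 compared genes were lower and none higher, with a median of -1.86. *MYB29*, one of its regulators, went from 11.02 to 0.244 FPKM and *MYB28* from 26.9 to 4.12 FPKM. *CYP79F1*, encoding the entry enzyme, went from 52.9 to 3.86 FPKM. *SOT17*, at 33.8 and 19.4 FPKM, was the member under 2-fold. Phenylpropanoid genes were lower to a lesser degree, 5 of 14 lower and 1 higher. *PAL1*, the entry enzyme, went from 383 to 143 FPKM and *4CL3* from 25.8 to 1.202 FPKM, but *CCR2*, a lignin gene, went from 4.82 to 21.9 FPKM. In the wide families of detoxification enzymes, more genes were called lower than higher for cytochromes P450, 21 of 165 higher and 39 lower, and for UDP-glycosyltransferases, 18 of 111 higher and 31 lower. Tau and phi glutathione transferases had 9 of 38 higher and 6 lower, with *GSTF6* going from 46.4 to 1450.0 FPKM. Class III peroxidases had 9 of 51 higher and 2 lower, and a median of -0.03 that changed sign with the scaling. Of 10 terpene synthases 1 was higher and 0 lower.

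Nutrient genes, listed after their values were seen, showed lower levels beyond sulfur. Of 20 sulfur genes 9 were lower and none higher. Besides the LSU genes, *APR1* and *APR3* went from 347 to 11.2 and from 373 to 16.04 FPKM, and *ATSDI1*, a gene of sulfur deficiency that lowers glucosinolate synthesis, from 38.8 to 0.216 FPKM. The paralogs within LSU and within APR may share reads. The rest of the pathway was not lower throughout, since *APS1*, encoding ATP sulfurylase, went from 274 to 442 FPKM. In iron nutrition 14 of 20 genes were lower and none higher. *OPT3*, a phloem iron transporter, went from 118 to 15.2 FPKM and *PYE*, a bHLH regulator, from 21.2 to 3.10 FPKM. *FER1*, encoding the storage protein ferritin, went from 59.5 to 91.8 FPKM, under 2-fold. Nitrate genes had 2 of 8 lower, with *NRT1.1* going from 42.0 to 15.4 FPKM, phosphate genes 2 of 8 lower, with *PAP17* going from 24.0 to 2.36 FPKM, and ascorbate genes 1 of 5 lower, namely *VTC2*. None of these 3 lists had a gene past 2-fold upward.

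**Figure D4:**
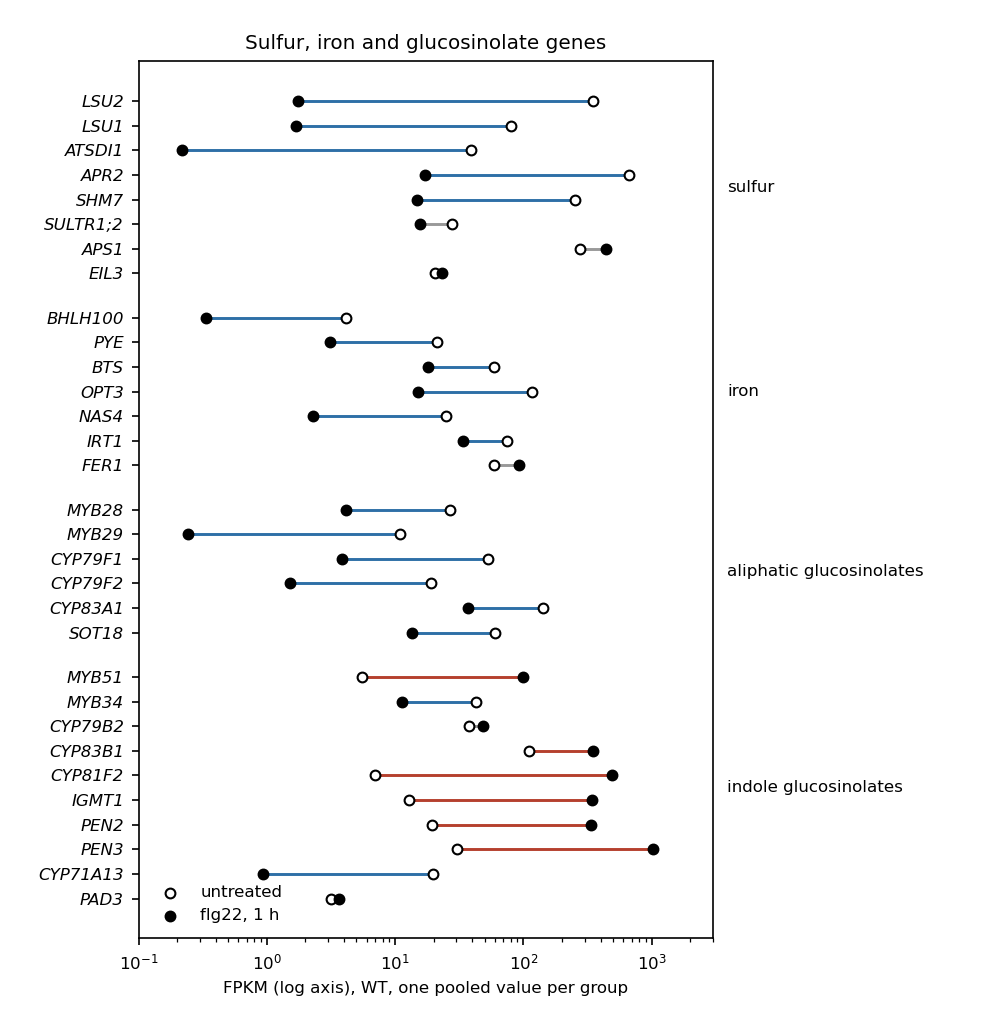
FPKM in untreated WT and in WT after 1 h of flg22 (log axis) for genes of glucosinolate, sulfur and iron metabolism, with 1 pooled value per group and a line joining the 2 values of each gene. In the group of indole glucosinolate and camalexin genes, the transporter gene PEN3 goes up to 1019.5 FPKM, while MYB34 and CYP71A13 go down. The aliphatic genes go down, as do most sulfur and iron genes such as LSU2, whereas APS1, EIL3 and FER1 go up.

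Groups of growth genes differed widely, and several had shares close to those of all genes. Type-A response regulators, which are induced by cytokinin and dampen its signal, had 7 of 8 genes lower and none higher, with *ARR6* going from 26.6 to 5.43 FPKM. In auxin synthesis and transport 5 of 12 genes were lower, among them *YUC2*, from 3.26 to 0.503 FPKM. Auxin response factors had 2 of 18 lower, Aux/IAA repressors 3 of 25 higher and 4 lower, SAUR genes 7 of 65 higher and 13 lower, and GH3 genes 2 of 7 higher, with a median of 0.06 that changed sign with the scaling. In gibberellin synthesis and signalling 2 of 12 genes were lower and 1 higher. The synthesis gene *GA20OX1* went from 5.42 to 0.731 FPKM and the receptor gene *GID1B* from 11.8 to 48.9 FPKM. Of 12 brassinosteroid genes only *BR6OX2*, encoding a late biosynthetic enzyme, was past 2-fold, from 5.53 to 0.785 FPKM.

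Of 13 leaf polarity and meristem genes 4 were lower and 1 higher. Lower by any amount were 12 of them, as were 11298 of all 18540 genes compared. *AS1*, a regulator of leaf form, went from 38.8 to 15.6 FPKM, while *ARGOS*, which promotes organ growth, went from 3.80 to 22.1 FPKM. Stomatal lineage genes had 2 of 9 lower, with *STOMAGEN*, a peptide that promotes stomata, going from 15.0 to 4.07 FPKM. Of 10 compared IDD genes 4 were lower and none higher, among them *IDD14*, from 13.5 to 3.58 FPKM, and *IDD4* itself, from 14.5 to 5.69 FPKM. Of 18 compared genes that the study names for flg22, 8 were higher and 5 lower, a list chosen on these samples and no independent evidence. Among the wall enzymes, expansins had 5 of 17 lower and none higher. XTH enzymes, which remodel xyloglucan, went both ways, 5 of 26 higher and 6 lower, with *XTH18* going from 35.6 to 987 FPKM and *XTH32* from 39.1 to 8.998 FPKM. Arabinogalactan and fasciclin genes had 4 of 41 higher and 5 lower and lipid transfer proteins 3 of 64 higher and 10 lower. The medians of pectin methylesterases (6 of 27 higher, 3 lower), cellulose synthases (0 of 8 higher, 1 lower), PIP and TIP aquaporins (1 of 19 each way), tubulins (0 of 15 either way) and core histones (1 of 46 each way) changed sign with the scaling. None of 16 cyclins was past 2-fold.

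Ribosomal protein genes were lower as a body by less than 2-fold. Of 270 compared genes, 247 were lower by any amount, as were 11298 of all 18540 genes compared. The median of the ribosomal protein genes was -0.48 against -0.16 for all genes, while 30 were at least 2-fold lower and 1 at least 2-fold higher. Their promoter windows differed from those of other genes in holding TGGGCC in 46.7% and AACCCTA in 19.3% of cases. Few photosynthesis genes were past 2-fold. The genes matched by annotation as light-harvesting and photosystem genes had 1 of 66 higher and 3 lower, with a median of 0.14 that changed sign with the scaling. Of 12 Rubisco and Calvin cycle genes 1 was higher and 1 lower, the higher being *RBCS1A*, which is listed at 0 in untreated seedlings. *RCA*, the Rubisco activase gene, was at 3053 and 2451 FPKM. None of 10 chlorophyll synthesis genes was past 2-fold. Plastid-encoded genes had 9 of 80 higher and 8 lower, several of them through values of 0. In light signalling 4 of 12 genes were lower, with *PHYB*, a red light receptor, going from 28.7 to 8.73 FPKM, and the list median of -0.06 changed sign with the scaling.

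Several markers of handling, time and tissue moved between the groups, and their part in the results was not tested. Touch genes, which respond to mechanical contact, had 5 of 6 genes higher, and their summed level went from 433.3 to 3194 FPKM, mostly through *TCH3*, from 66.0 to 2286 FPKM. Of 7 morning clock genes 4 were lower, with *CCA1* going from 166 to 58.9 FPKM. Of 5 evening clock genes 1 was higher, *TOC1*, from 5.71 to 30.1 FPKM, and 1 lower, *GI*, from 8.43 to 2.28 FPKM, with a median of 0.05 that changed sign with the scaling. Root markers had 2 of 12 lower and a summed level of 213 and 155 FPKM, and shoot markers 3 of 11 lower and a summed level of 33117 and 39164 FPKM. The median change was -0.33 for root and -0.51 for shoot markers, so the larger shoot sum does not describe the typical shoot marker. None of the root or shoot markers was past 2-fold upward, and defining markers of both organs were present in both groups. Housekeeping genes had a median of 0.01, which changed sign with the scaling. *ACT2* was at 379 and 388 FPKM, but *UBQ10*, a ubiquitin gene often used as a reference, went from 914 to 2270.4 FPKM. A separate experiment of the series holds 2 more 14-day-old WT samples without flg22, as 1 pooled value per gene. There *VTC2* was at 50.2, *CGA1* at 2.775 and *HSFA2* at 0.643 FPKM, near or below the treated values here. Among the type-A response regulators, *ARR15* at 0.496, *RR5* at 4.09, *ARR7* at 5.57 and *ARR9* at 9.24 FPKM were below the treated values. *ARR6* at 8.02 and *RR3* at 17.5 FPKM lay between the groups. So did *ERF6*, at 91.1 FPKM, and the sulfur genes *APR2*, at 67.4 FPKM, and *LSU2*, at 100.1 FPKM. In contrast, *PP2-B13* at 5.05, *WRKY22* at 15.7 and *MYB29* at 7.77 FPKM were nearer the untreated values. These are examples, and differences between the experiments were not tested.

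The group labelled idd4 gives a further pair of values for the same treatment, with no sample shared with WT. In untreated seedlings it stood close to WT, with 0.523% of 18349 genes higher and 0.463% lower in idd4. *IDD4* itself was at 23.0 FPKM untreated and 22.4 FPKM after flg22 in that group, above the WT values of 14.5 and 5.69 FPKM, so that its transcript level is no check of the mutant label. After flg22 2433 genes (13.1%) were higher and 1546 (8.33%) lower in the idd4 group, of 18558 compared. Of the genes higher in WT, 1885 were also higher in idd4, which is 92.9% of the WT set and 77.5% of the idd4 set. Of the genes lower in WT, 1073 were also lower in idd4, 68.2% of the WT set and 69.4% of the idd4 set. Across 18964 genes the 2 changes had a Pearson correlation of 0.835 and a Spearman correlation of 0.867, a description only, since genes are no independent samples. The leading genes had like values, with *PP2-B13* going from 1.06 to 1200.1 FPKM in idd4. The ribosomal protein genes compared in WT had a smaller decrease in idd4. Their median there was -0.24, against -0.06 for all genes compared in idd4, and 6 were at least 2-fold lower. The median ratio of the idd4 change to the WT change was 1.11 in the WT higher genes and 0.905 in the WT lower genes, a difference for which no test was possible.

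**Figure D5:**
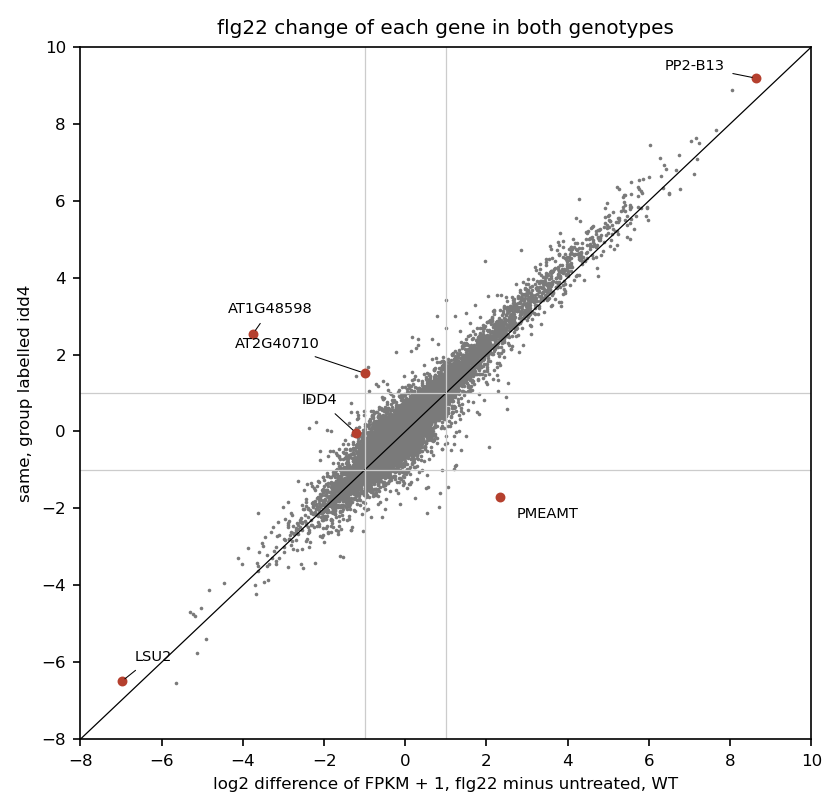
Log2 change of FPKM + 1 after flg22 in WT (x axis) and in the group labelled idd4 (y axis), with 1 point for each of the 18742 genes above 0 in all 4 groups. Most genes lie along the diagonal, with a Pearson correlation of 0.835 over the 18964 genes that include those listed at 0.

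Genes listed at 0 in one group need separate reading. There were 23 genes at 0 in one WT group and at 50 FPKM or more in the other, 17 of them at 0 after flg22 and 6 at 0 untreated. Among them AT3G45851 was listed at 57894 and 0 FPKM and AT2G13422 at 0 and 24040.0 FPKM. Of the 23, 6 are plastid-encoded, and the 14 with a length in the reference had a median of 321.5 bases, against 2334 for all compared genes. A listed 0 can be a failed estimate, and no fold is given for these genes.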

How the data were processed

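RNA from whole 14-day-old seedlings was sequenced in 3 samples per group. Per the submitters' processing notes, which name tools without roles, the tools were Trimmomatic, TopHat, Bowtie2 and Cufflinks and the build was TAIR10. The authors deposited 1 pooled FPKM value per gene and group, so read depth and replicate spread are unknown and no interval can be given. The deposited FPKM column stands beside gene identifiers in a different order. Of 27371 identifiers 21642 are away from their alphabetical place. Against the study's own gene tables, untreated WT values were equal for 1997 of 1997 genes with identifiers sorted and for 499 as deposited (relative tolerance 0.001). Treated WT values were equal for 0 of 1900 genes and differed by a near-constant factor (log2 median 0.15, between 0.13 and 0.17 from the 1st to the 99th percentile), so the WT flg22 level holds up to that scaling, which was run as an alternative.

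Genes reaching 1 FPKM in one or both groups entered the comparison of log2(FPKM + 1), with a 2-fold threshold and no test. Gene lists (35), families by annotation (54) and 9 further sets added after values were seen were summarised by counts and medians. Families were matched by patterns on annotated symbols, synonyms or products, which can catch genes of other classes. The members and lists were chosen with earlier results of these data known. Named were the 20 largest changes each way among genes above 0 that reached 5 FPKM, list members, up to 6 members of a family with at least 5 FPKM, genes the study names for flg22, and genes at 0 in one group with 50 FPKM or more in the other. Identifiers were matched to RefSeq TAIR10.1 (26703), and 3050 of 3050 positions overlapped between TAIR10 and TAIR10.1. Motifs were searched in windows of 250 bases. Alternatives were pseudocounts of 0.1 and 5, no filter, a minimum of 5 FPKM, folds of 1.5 and 4, other scalings, genes at 0 left out and the deposited order. Python 3.11.15, numpy 2.4.6, pandas 2.3.3, scipy 1.17.1 and matplotlib 3.10.9 were used, and the scripts were tested on simulated data.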

Additional observations from a re-analysis of the deposited data

Results flagged for a closer look

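A set of 3 genes went at least 2-fold in opposite directions in WT and idd4 seedlings, with no value at 0 and at least 5 FPKM in one group. The difference was not tested, since each group is 1 pooled value. AT1G48598 went from 13.1 to 0.0473 FPKM in WT and from 0.0593 to 5.18 FPKM in idd4, changes of -3.749 and 2.544 on the log2 scale. *PMEAMT* (AT1G48600), a methyltransferase gene with the neighbouring identifier, went from 0.945 to 8.83 FPKM in WT and from 12.9 to 3.27 FPKM in idd4, changes of 2.337 and -1.705. Reads may have been split between AT1G48598 and *PMEAMT*, which was not tested. Their opposite changes may therefore be no separate observations and no change of either gene. AT2G40710, a hemolysin-III related gene, went from 6.202 to 2.59 FPKM in WT and from 3.68 to 12.4 FPKM in idd4, changes of -1.004 and 1.517. In all, 10 genes were at least 2-fold apart in opposite directions, of which 5 had no group at 0.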

How the results depend on the processing

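No paired analysis was possible because each group was deposited as 1 pooled value, and for the same reason leaving out each replicate was not run. The higher count of 2028 was 3167 at a fold of 1.5 and 895 at a fold of 4, and stayed within 1.5 times under the other settings. The lower count of 1573 was 2506 with a pseudocount of 0.1, 697 with a pseudocount of 5, 4113 at a fold of 1.5, 230 at a fold of 4, and 2411 with nuclear genes rescaled without the 10 highest, an alternative chosen after seeing the data. With pseudocounts of 0.1 and 5 the higher counts were 2367 and 1432, and the share of higher genes among those called was 48.6% and 67.3%. Lists with a median of at least 1 either way numbered 27, and 14 with a pseudocount of 5, 16 with no filter and 7 in the deposited order of identifiers. Of 880 pairs of list and setting other than the deposited order, 851 kept their median within 1.5 times, 29 moved and 0 reversed. Reversed means a changed sign of a median that was at least 1 either way. Smaller medians that changed sign are left out of this count, in the deposited order too. In the deposited order, 4 medians reversed, to -0.009009 for pattern receptors, -0.3206 for jasmonate synthesis, -0.04276 for ZAT and AZF zinc fingers and -0.0106 for calcium-dependent protein kinases. The share of WT higher genes also higher in idd4, 92.9%, was 91.5% with a pseudocount of 0.1, 95.3% with 5, 95.6% at a minimum of 5 FPKM, 91.1% with the median of ratios, 95.4% with treated WT on the scale of the study's table, 75.3% with equal nuclear sums and 88.95% without the 10 highest genes. The W-box share of 57.3% was 72.0% in windows of 500 bases, where the share of all windows was also higher, 45.2% against 28.65%. The scale of the study's table and these idd4 and window alternatives were also chosen after seeing the data. The cause of these differences was not tested, beyond the fold and the pseudocount, which by construction set how many genes pass.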

Other observations

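Further groups with values not described above include the heat shock proteins, with 10 of 65 compared genes lower, 4 higher and a median change of -0.56. The cytosolic chaperone genes *HSP81-2* and *HSP81-3*, which are close paralogs and may share reads, went from 222 to 71.4 FPKM and from 219 to 64.8 FPKM, while AT1G59860 went from 4.99 to 21.4 FPKM. Class II trehalose phosphate synthase-like genes, listed after values were seen, had 3 of 7 higher and 1 lower. *TPS11* went from 96.3 to 300.1 FPKM and *TPS5* from 7.44 to 1.81 FPKM.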
